A study of Mus musculus with 4 samples.

Results

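The Tmem176+ macrophages are 1 of 9 clusters that the authors named in single-cell RNA sequencing of mouse bone marrow-derived macrophages (BMDMs), and they were taken here as every cell that carries that name in the deposited annotation. The name covered 1185 of 27366 cells. BMDMs are primary macrophages that grow out of bone marrow in the growth factor M-CSF, here recombinant M-CSF at 50 ng/mL. The marrow came from mice 8 to 12 weeks old, and all 4 groups shared this origin and growth factor. The 4 groups were untreated wild-type cells (C57BL/6J in the sample labels, C57BL/6 in the growth protocol), untreated Trpv4-null cells, and cells of each genotype exposed for 24 h to 100 ng/mL of lipopolysaccharide (LPS). Each group is 1 library. The design text speaks of 3 mice per genotype and 12 samples, but no source used here ties a cell to a mouse, so the groups have no replicates and no p-value is given.

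Tmem176a and Tmem176b encode small proteins that cross the membrane 4 times and are relatives of the MS4A family, to which the B cell marker CD20 belongs. They are neighbouring genes, are known from dendritic cells and other myeloid cells, and have been described as ion channels of intracellular membranes and, for TMEM176B, as a brake on the NLRP3 inflammasome. Trpv4 encodes a calcium-permeable channel that responds to mechanical stretch. LPS, a component of the outer membrane of Gram-negative bacteria, is sensed by the receptor TLR4 and switches on cytokine and interferon-response genes.

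Both genes lie back to back on chromosome 6 of the GRCm38 genome (the assembly of mm10). Tmem176a occupies chr6:48840919-48847071 on the plus strand and Tmem176b chr6:48833818-48841496 on the minus strand, so their 5′ parts overlap. RefSeq promoter windows, from 250 bases before to 50 bases after a start site, are shown because both genes were highest in the same cluster in every library. The window of Tmem176a is chr6:48841406-48841705 on the plus strand and that of Tmem176b is chr6:48841325-48841624 on the minus strand. Capitals mark the 219 bases, at 48841406 to 48841624, that both windows hold, read on opposite strands.
Tmem176a: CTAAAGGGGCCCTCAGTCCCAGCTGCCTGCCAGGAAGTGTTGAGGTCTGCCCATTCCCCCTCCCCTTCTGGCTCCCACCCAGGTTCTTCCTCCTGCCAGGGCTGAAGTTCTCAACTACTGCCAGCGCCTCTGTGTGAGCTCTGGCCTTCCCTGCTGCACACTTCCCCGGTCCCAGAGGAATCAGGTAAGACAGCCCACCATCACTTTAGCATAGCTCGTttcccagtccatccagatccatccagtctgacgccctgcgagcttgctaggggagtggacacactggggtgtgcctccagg
Tmem176b: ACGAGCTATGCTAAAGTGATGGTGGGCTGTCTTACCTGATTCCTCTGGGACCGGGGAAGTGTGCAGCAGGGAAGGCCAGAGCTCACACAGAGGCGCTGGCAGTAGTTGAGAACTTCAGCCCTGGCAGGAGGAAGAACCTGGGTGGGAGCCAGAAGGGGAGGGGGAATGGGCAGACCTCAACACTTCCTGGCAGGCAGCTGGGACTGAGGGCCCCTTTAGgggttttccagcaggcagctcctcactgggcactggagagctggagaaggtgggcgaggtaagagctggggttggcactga
RefSeq lists 2 start sites for Tmem176a and 3 for Tmem176b, and the windows shown are the pair with the largest overlap. Their start sites, at 48841656 and 48841374, are 282 bases apart. Each window has a GC content of 60.3%, against a median of 52.7% over 32851 mouse windows of the same length. Searched on both strands, neither window held the whole of GAGGAAGT (for PU.1, in 3.20% of all windows), CCGGAAGT (ETS, 3.89%) or TGACTCA (AP-1, 5.2%). Nor did either hold TTGCGCAA (C/EBP, 0.183%), GGGACTTTC (NF-kB, 0.353%), TATAAA (13.6%) or CACGTG (7.15%). The shorter GAGGAA, a part of the PU.1 letters, does stand in the capitals of both windows, and its share of all windows was not counted. The absence of the longer letters in these windows is a description and says nothing about the factors.

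Before any comparison by genotype, Trpv4 itself was read in the Tmem176+ cells. It had 10 UMIs (unique molecular identifiers, 1 per captured mRNA molecule) in untreated wild-type cells, 11 in untreated Trpv4-null cells, 9 in LPS-treated wild-type cells and 54 in LPS-treated Trpv4-null cells. Per 1000000 UMIs (CPM) that is 4.15, 5.72, 1.09 and 8.90, and the other cells of the same libraries had 5.93, 8.72, 2.13 and 9.66. Trpv4 thus had no lower level where the label says Trpv4-null. The deleted part of the gene is not stated and poly-A capture reads the transcript's 3′ end, so these counts do not check the label, and "Trpv4-null" below means the library labelled so.

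Tmem176+ cells made up a similar share of every library. They were 320 of 7028 untreated wild-type cells (4.55%, exact 95% binomial interval 4.08 to 5.07), 206 of 5485 untreated Trpv4-null cells (3.76%, 3.27 to 4.29), 374 of 8288 LPS-treated wild-type cells (4.51%, 4.08 to 4.98) and 285 of 6565 LPS-treated Trpv4-null cells (4.34%, 3.86 to 4.86). Here and below, intervals take in the error of counting and no variation of mice or cultures. Those of CPM and of ratios count each UMI as independent and take in no spread between cells. Clusters were made from the same expression values in all libraries together, so a share also depends on how the cells were clustered. The Tmem176+ cells held 2406805, 1922251, 8290108 and 6070558 UMIs in this order of libraries. Their median depth was 6947.5, 8636, 21349 and 20476 UMIs per cell against 5592, 7858, 16399 and 15839.5 in the other cells. Their median mitochondrial share was 5.39%, 5.59%, 2.72% and 2.86% against 6.10%, 6.16%, 3.07% and 3.21%. The parts of depth and mitochondrial share in the results below were not tested, other than by the thinning to a fixed depth. The 4 libraries shared 74 cell barcodes, 6 of them with a Tmem176+ cell, and none was Tmem176+ in more than 1 library.

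The label held against its marker genes. Tmem176a stood at 566 CPM in untreated wild-type, 499.9 CPM in untreated Trpv4-null, 448 CPM in LPS-treated wild-type and 445 CPM in LPS-treated Trpv4-null Tmem176+ cells. In the other cells of those libraries it stood at 92.8, 77.8, 45.6 and 50.3 CPM. The lowest Tmem176+ value was above the highest value of the other cells. The ratios were 6.10 (95% interval 5.73 to 6.49), 6.43 (5.98 to 6.91), 9.81 (9.42 to 10.2) and 8.85 (8.45 to 9.28). Tmem176b stood at 769, 669, 535 and 513 CPM against 155, 127, 64.0 and 67.1 CPM, ratios of 4.95 (4.70 to 5.22), 5.28 (4.96 to 5.61), 8.36 (8.06 to 8.66) and 7.65 (7.33 to 7.98). These differences are a description, since the clusters were drawn from the expression of the same cells.

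Across the 8 clusters with over 100 cells in every library, the Tmem176+ cells ranked first for both genes in all 4 libraries. The next highest for Tmem176a was the Cd74+ cluster, with 253, 194, 185 and 117 CPM. For Tmem176b the Cd74+ cluster followed in 3 libraries, at 343, 259 and 209.6 CPM, and the Proliferating cluster in LPS-treated Trpv4-null cells at 145 CPM. Although they were about 4% of the cells, the Tmem176+ cells held 26.2%, 21.5%, 37.5% and 34.3% of the Tmem176a UMIs of their libraries, and 22.4%, 18.4%, 33.8% and 31.1% of the Tmem176b UMIs. Most transcripts of both genes were thus outside the named cluster.

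**Figure D1:**
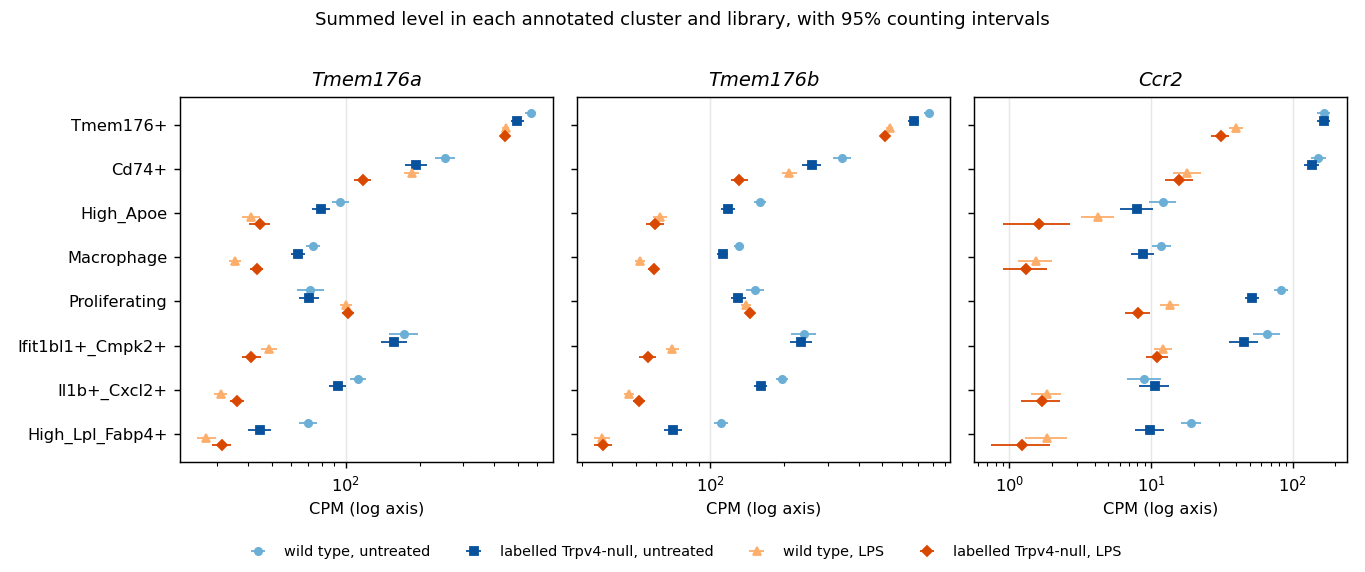
Levels of Tmem176a, Tmem176b and Ccr2 in CPM (log axis) for 8 clusters, with 1 point per library. The Tmem176+ points are the highest of each library in all 3 genes; Tmem176a lies between 445 and 566 CPM there.

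Cell by cell, both genes were widespread in the cluster and scattered outside it. At least 1 UMI of either gene was found in 99.1%, 96.6%, 97.6% and 97.2% of Tmem176+ cells and in 46.2%, 48.7%, 39.0% and 41.4% of the other cells. After thinning every cell to 3000 UMIs, which left out 4, 1, 1 and 0 Tmem176+ cells and 662, 208, 121 and 93 others, the shares were 94.3%, 91.7%, 85.8% and 84.6% against 36.8%, 32.3%, 18.1% and 19.3%. Both genes together were found in 68.7%, 63.4%, 52.8% and 51.9% of thinned Tmem176+ cells and in 11%, 8.91%, 3.98% and 4.25% of the others. Without thinning the shares with both genes were 91.6%, 90.8%, 93.3% and 92.6% against 21%, 23.8%, 18.9% and 19.6%. The lowest thinned shares with both genes were in the High_Lpl_Fabp4+ cluster (8.26%, 4.49%, 2.32% and 1.52%), and the Cd74+ cluster had 29.3%, 27.9%, 20.7% and 13.4%. The part of free RNA in the droplets in these UMIs was not tested, and no cluster lacked both genes.

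Within the cluster the level varied widely between cells. The summed UMIs of Tmem176a and Tmem176b per cell had a median of 9, 10, 19 and 18 and a maximum of 34, 46, 82 and 115, with a lowest value of 0 in every library. Relative to each cell's own total, the medians were 12.7, 11.1, 8.87 and 8.93 UMIs in every 10000 UMIs. The cluster therefore also holds cells in which neither marker was counted.

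**Figure D2:**
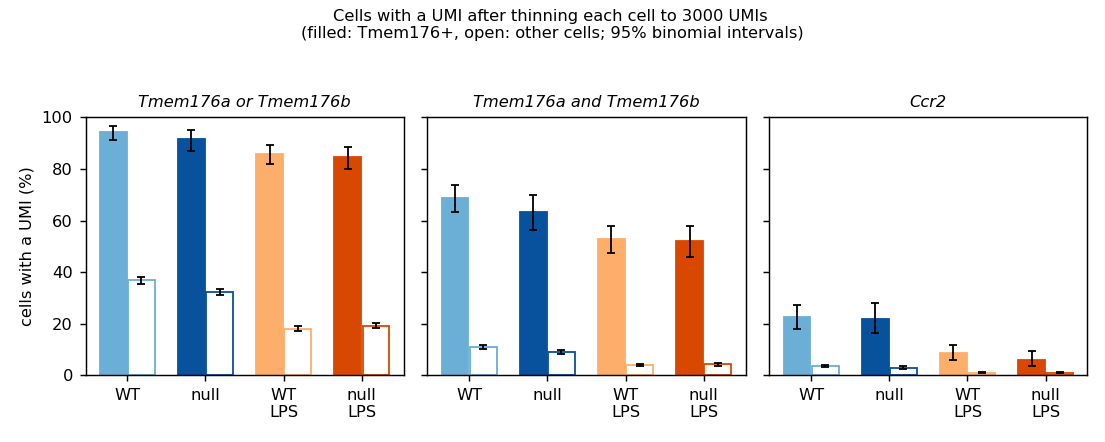
Percent of cells with at least 1 UMI after thinning to 3000 UMIs, for either Tmem176 gene, both genes together and Ccr2, in Tmem176+ and other cells of each library; bars are exact 95% intervals. Tmem176+ cells are higher in all 3 panels and every library (Ccr2 22.5% against 3.61% in untreated wild-type cells).

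Few genes set the Tmem176+ cells apart from the other macrophages in every library. Among 4719 genes compared in all 4 libraries (at least 20 CPM and 30 UMIs in the higher sum), 4 were at least 2-fold higher in all 4 (0.0848%). They were Tmem176a, Tmem176b, the monocyte chemokine receptor Ccr2, and Axl, a receptor kinase that takes up dying cells. At least 2-fold lower in all 4 were 13 genes (0.275%). Within each library between 89.4% and 93.1% of the genes compared lay within 0.5 log2 of the other cells.

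Ccr2, the receptor that draws monocytes from marrow and blood to CCL2, followed the 2 markers. It stood at 165 CPM in both untreated libraries, at 39.8 CPM in LPS-treated wild-type and at 31.0 CPM in LPS-treated Trpv4-null Tmem176+ cells. The other cells had 26.4, 22.1, 4.74 and 4.05 CPM, which gives ratios of 6.25 (5.56 to 7.02), 7.5 (6.59 to 8.52), 8.39 (7.33 to 9.60) and 7.65 (6.40 to 9.10). Ccr2 is on chr9:124101950-124113557. The Tmem176+ cells held 26.7%, 24.2%, 33.9% and 31.1% of all Ccr2 UMIs, and the Cd74+ cluster came next at 151, 136, 18.1 and 15.8 CPM. A Ccr2 UMI was found in only a part of the cluster, 29.7%, 31.6%, 16.0% and 15.4% of cells, against 5.10%, 5.63%, 3.29% and 2.85% of others. After thinning the shares were 22.5%, 22%, 8.58% and 5.96% against 3.61%, 3.00%, 0.95% and 0.986%.

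Axl stood at 73.1, 53.6, 47.9 and 47.1 CPM in Tmem176+ cells and at 22.6, 15.7, 15.1 and 15.6 CPM in the others. Every Tmem176+ value exceeded every value of the other cells, with ratios between 3.01 and 3.41. Axl was higher still in the Cd74+ cluster, at 134, 104, 73.4 and 57.4 CPM. The ratio of Ccr2 and of Axl also exceeded 2-fold in all 4 libraries under both other scalings, and against the Macrophage cluster alone. After thinning, neither gene reached the filter in all libraries.

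Other genes were higher in the cluster by smaller ratios. Pycard, the ASC adaptor that assembles inflammasomes, stood at 299, 345, 547 and 556 CPM against 169.97, 191, 284 and 283 CPM, ratios of 1.76 to 1.96 with the highest level of all 8 clusters in each library. Its partner Nlrp3, shown after its values were seen, had 66.9, 46.8, 80.0 and 85.2 CPM in Tmem176+ cells and 63.9, 46.4, 102 and 98.6 CPM in the others. Il18, a cytokine that inflammasomes release, stood at 24.9, 21.8, 51.9 and 46.8 CPM against 18.3, 19.5, 33.5 and 36.7 CPM. Of the 10 inflammasome and IL-1 genes compared, 3 were above and 4 below the other cells in all 4 libraries, with a median log2 ratio of -0.05. Of all 4719 genes 17.9% were above and 36.1% below. Ceruloplasmin (Cp), a copper-carrying iron oxidase, stood at 26.6, 21.3, 193 and 162 CPM against 4.69, 5.46, 93.4 and 84.9 CPM. Its log2 ratio was thus larger in untreated libraries (2.28 and 1.79) than after LPS (1.04 and 0.92). H2-DMa, which loads peptides onto MHC class II, stood at 74.4, 73.9, 42.5 and 44.0 CPM against 30.9, 38.6, 22.9 and 25.5 CPM. The Cd74+ cluster again had more H2-DMa, 219, 237, 85.3 and 103 CPM. Coro1a, Fdps, Ndufs8, Rpl22l1 and Rpl3 were also highest in the Tmem176+ cluster in all 4 libraries. Coro1a, a leukocyte actin regulator, stood at 479, 601, 461 and 484 CPM against 333, 408, 296 and 325 CPM.

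Ribosomal protein genes were slightly higher as a group. Above the other cells in all 4 libraries were 69 of 76, and 1 was below, with a median log2 ratio of 0.25, against 17.9% of all 4719 genes above, 36.1% below and a median of -0.07. The count was 73 with TMM factors and 75 with median-of-ratios factors. Rpl3 stood at 1842, 1925, 835 and 791 CPM against 1249, 1352, 589 and 567 CPM. Apart from the Tmem176 pair, the MS4A relatives Ms4a6b and Ms4a6c were modestly higher: Ms4a6b at 298, 402, 537 and 553 CPM against 234, 332, 428 and 449 CPM. Of 7 family genes compared, 4 were above the other cells in all 4 libraries and none was below. These 4 were Ms4a6b, Ms4a6c and the Tmem176 pair that names the cluster, so the count is in part given by the clustering.

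Of the 13 lower genes, Top2a, Mki67, Birc5, Cdk1, Rrm1 and Stmn1 are known from dividing cells, and the other 7 were Fabp4, Lhfpl2, Cadm1, Npy, Rnf128, Slc6a8 and Folr2. Top2a, a topoisomerase of dividing cells, stood at 2.49, 2.60, 4.46 and 5.93 CPM against 47.0, 97.5, 32.5 and 42.6 CPM. Mki67, a marker of proliferation, stood at 14.1, 13, 4.34 and 4.78 CPM against 78.6, 122, 21.1 and 25.2 CPM. The other cells include a Proliferating cluster, which had the highest level of each gene known from dividing cells in every library. Among the 8 clusters, in the same order of libraries, the Tmem176+ cells ranked 2, 2, 4 and 2 for Birc5. For Stmn1 the ranks were 4, 2, 2 and 2, for Top2a 7, 8, 3 and 2, and for Mki67 6, 8, 8 and 7. Against the Macrophage cluster alone none of the cell-cycle genes was among the 6 genes at least 2-fold lower in all 4 libraries, which were Cadm1, Lhfpl2, Rnf128, Slc6a8, S100a8 and S100a9.

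Fabp4, a fatty acid carrier of lipid-laden macrophages, stood at 7.89, 10.9, 16.9 and 24.5 CPM in Tmem176+ cells against 63.6, 44.8, 75.1 and 114 CPM. The other cells include the High_Lpl_Fabp4+ cluster, and the Macrophage cluster alone had 11.4, 10.8, 23.2 and 36.3 CPM of Fabp4. Lhfpl2, which encodes a tetraspan membrane protein, stood at 27.4, 28.6, 24.5 and 22.2 CPM against 89.0, 81.4, 70.2 and 65.2 CPM, ratios of 0.308 to 0.352. The adhesion molecule Cadm1 stood at 42.8, 29.7, 6.76 and 6.09 CPM against 113, 96.4, 25.9 and 28.5 CPM. Npy, which encodes neuropeptide Y, stood at 18.7, 14.6, 65.7 and 125 CPM against 64.6, 61.1, 229 and 324 CPM. For Lhfpl2, Cadm1, Npy, Rnf128 and the creatine transporter Slc6a8 the Tmem176+ cells had the lowest level of the 8 clusters in every library. Folr2, a folate receptor of resident macrophages, stood at 18.3, 17.7, 41.4 and 67.5 CPM against 38.5, 61.3, 84.5 and 143 CPM.

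**Figure D3:**
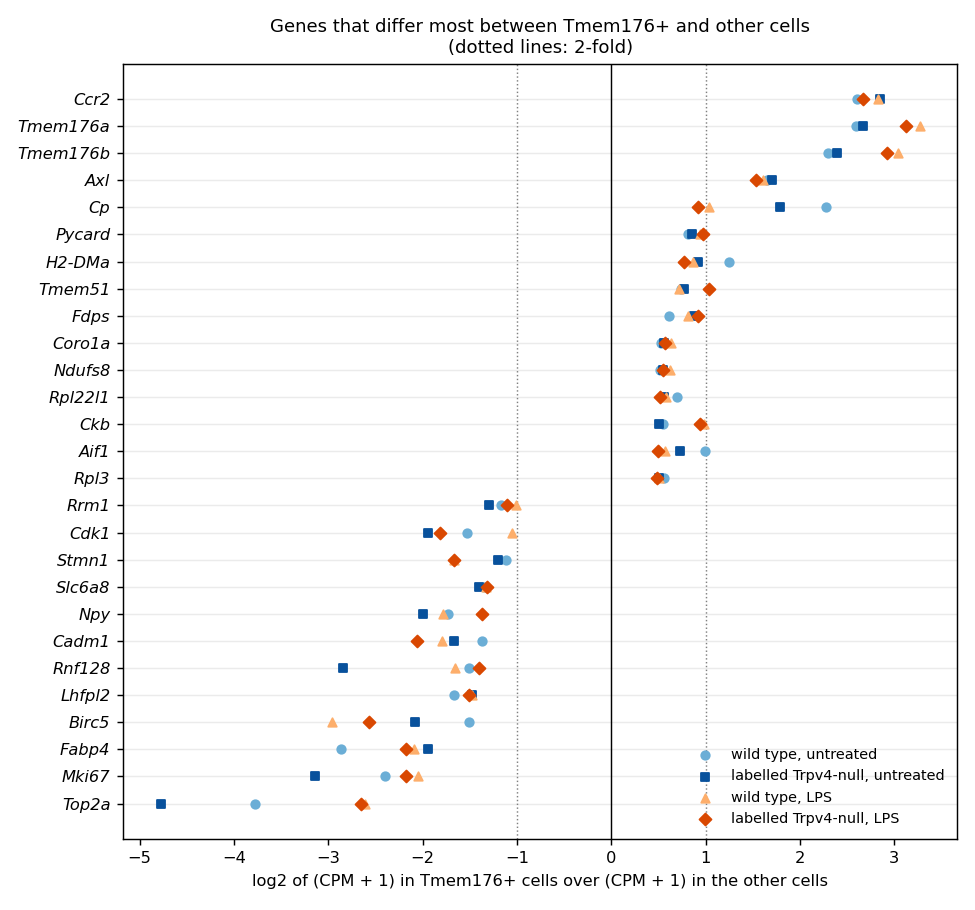
Log2 ratio of Tmem176+ to other cells for 27 genes, 1 point per library. Tmem176a lies between 2.60 and 3.27 and Top2a is among the lowest.

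Several macrophage gene groups were shifted slightly down. Below the other cells in all 4 libraries were 14 of 17 genes of lipid uptake, storage and efflux (median log2 ratio -0.48), 17 of 22 cathepsin and lysosome genes (-0.26), 12 of 16 oxidative stress genes (-0.24), 13 of 22 interferon-stimulated genes (-0.21) and 10 of 12 mitochondrial transcripts (-0.18). These stand beside 36.1% of all genes below in all 4. The other cells include the High_Lpl_Fabp4+ and Ifit1bl1+_Cmpk2+ clusters, and their part in the lipid and interferon counts was not tested. Of these lists, with median-of-ratios factors the counts were 12 of 17 lipid, 10 of 22 lysosome, 8 of 16 oxidative stress, 9 of 19 interferon and 7 of 12 mitochondrial genes, beside 913 of 4808 genes in all. Of the lipid list, Apoe went the other way, at 5365, 5809, 827 and 925 CPM against 4279, 5065, 554 and 776 CPM.

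The marker lists of cell types were mixed. All 15 macrophage markers reached 20 CPM in Tmem176+ cells, and their sum was 37768, 35511, 26345 and 26646 CPM against 36000.4, 34365, 27035 and 26969 CPM in the other cells. Adgre1, which encodes the macrophage antigen F4/80 and was picked after its values were seen, stood at 1108, 1101, 2021 and 1892 CPM against 992, 1041, 1946 and 1827 CPM. The 12 monocyte markers summed to 358, 406, 1407 and 1497 CPM against 97.6, 109, 951 and 1045 CPM, and 7 of them reached 20 CPM. Without LPS, Ccr2 (165 CPM in both libraries) and F13a1 made up most of this sum, while Ly6c2 and Hp were below the other cells. Ms4a4c reached the highest level of the 12, with a log2 LPS ratio of 5.87 in wild-type Tmem176+ cells. F13a1, a clotting factor subunit of monocytes, stood at 149, 186, 5.55 and 2.47 CPM against 26.4, 32.6, 0.58 and 0.27 CPM. Of 17 dendritic cell markers only Irf8 reached 20 CPM, the sum was 354, 442, 183 and 208 CPM against 371, 391, 197 and 211 CPM, and Flt3, Cd209a, Clec9a and Ccr7 were at 0 UMIs. The B cell sum of 229, 282, 19.4 and 13.2 CPM against 136, 136, 3.06 and 2.29 CPM came from Ighm and Cd79b, while Ebf1 and Jchain were at 0. Cd79b, part of the B cell receptor complex, stood at 25.3, 27.6, 19.2 and 13 CPM against 5.61, 4.48, 2.75 and 2.02 CPM. The neutrophil sum was lower, 54.8, 67.1, 96.3 and 121 CPM against 229, 382, 134 and 141 CPM. Single cells held much of it in the other cells: 1 untreated wild-type cell held 53.4% of the S100a8 and 60.3% of the S100a9 UMIs, and 1 LPS-treated Trpv4-null cell 99.2% of the S100a9 UMIs. Of 16 T, NK and innate lymphoid markers 3 were in the table, and only the cytokine receptor Il7r reached 20 CPM. The T, NK and innate lymphoid sum lay between 3.38 and 64.0 CPM in Tmem176+ cells and between 16.0 and 142 CPM in the others. Osteoclast markers summed to between 46.0 and 83.5 CPM against 57.5 to 119.7 CPM, with Ocstamp at 0. Erythroid (0.52 to 1.69 CPM), mast cell, basophil and eosinophil (2.08 to 27.5 CPM) and stromal and endothelial markers (10.1 to 18.7 CPM) were low. Progenitor markers summed to between 24.5 and 308 CPM against 28.8 to 268 CPM, and of them only Ly6a reached 20 CPM. The part of other cell types in these levels was not tested.

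By the mean over the 4 libraries, the cluster most like the Tmem176+ cells was Cd74+, with a correlation of 0.119 over 4719 genes. The values correlated were log2 of (CPM + 1) minus the gene's mean over the 8 clusters of that library. Subtracting this mean pulls correlations between clusters below 0 on average, so only their order is read. By library the correlation was 0.103, 0.174, 0.177 and 0.0232 for Cd74+. For High_Apoe it was 0.142, 0.130, -0.0975 and -0.0272, higher than for Cd74+ in untreated wild-type cells. High_Lpl_Fabp4+ had the lowest mean, -0.493. These correlations are across genes, which are not independent, and share the libraries' totals. Set directly against Cd74+ cells over 4564 genes, 3 genes were at least 2-fold higher in Tmem176+ cells in all 4 libraries, Tmem176a, Tmem176b and Cp, and 13 were at least 2-fold lower. The lower genes included, named after their values were seen, the MHC class II genes H2-Ab1, H2-Aa and H2-Eb1, the invariant chain Cd74 and the metalloelastase Mmp12. H2-Ab1 stood at 11.2, 6.24, 26.8 and 29.5 CPM in Tmem176+ cells against 1068, 852, 587 and 648 CPM in Cd74+ cells. Cd74 itself stood at 184, 155, 60.3 and 107 CPM against 4061, 3497, 1805 and 1998 CPM in Cd74+ cells. Mmp12 stood at 1.66, 3.12, 0.72 and 3.62 CPM against 248, 175, 159 and 181 CPM in Cd74+ cells. H2-Ab1 was also under the level of the other cells in general, at 54.1, 51.6, 46.3 and 59.7 CPM, and these include the Cd74+ cluster. Of 6 MHC class II presentation genes compared, 4 were below the other cells in all 4 libraries and 1, H2-DMa, was above. Of all genes 36.1% were below and 17.9% above. Against the Macrophage cluster alone, Cd74 and H2-DMa were among the 7 genes at least 2-fold higher in all 4 libraries. Tmem176+ and Cd74+ cells were the 2 highest clusters for Tmem176a, Ccr2 and H2-DMa in all 4 libraries. Both clusters were drawn from the expression of the same cells, and each carries the name of a gene compared here. The Tmem176a rank and the lower Cd74 and MHC class II levels against Cd74+ cells are therefore a description. Apoe was higher in Tmem176+ than in Cd74+ cells, 5365 against 1708 CPM in untreated wild-type cells.

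LPS reached the Tmem176+ cells broadly. Of 6099 genes compared in wild-type Tmem176+ cells 474 were at least 2-fold higher after LPS (7.77%) and 1232 at least 2-fold lower (20.2%). Of 6109 in Trpv4-null cells 522 were higher (8.54%) and 1412 lower (23.1%). Higher genes were thus 27.8% and 27.0% of these, but 64.3% and 62.4% with TMM factors and 61.9% and 61.7% with median-of-ratios factors. Those factors moved the median gene from -0.37 and -0.36 log2 to 0.16 and 0.19, and to 0.13 and 0.17. All LPS values below use UMI totals. A level after LPS is a share of the RNA captured, and fewer UMIs of a gene and more of the rest cannot be told apart.

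The highest LPS ratios were those of acute-phase, chemokine and interferon genes. Saa3, an acute-phase serum amyloid, had 3.74 CPM in untreated wild-type Tmem176+ cells and 31.2 CPM in untreated Trpv4-null ones, and LPS brought it to 52039 and 47953 CPM. In the untreated Trpv4-null cells 48 of 60 Saa3 UMIs came from 1 cell. The chemokine Ccl5 went from 4.99 and 13.5 CPM to 14214 and 12715 CPM. Lcn2, a siderophore-binding protein, had 0 UMIs in untreated cells and 271 and 264 CPM after LPS, at least 217- and 169-fold higher taking 3 UMIs per library as the floor. Isg15, an interferon-stimulated ubiquitin-like protein, went from 19.1 and 29.1 CPM to 2217 and 2924 CPM. Acod1, which makes itaconate, went from 1.66 and 0.52 CPM to 1092 and 1584 CPM.

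Interferon-stimulated, cytokine and chemokine genes were higher after LPS in both genotypes, beside 7.77% and 8.54% of all genes. At least 2-fold higher were 38 of 38 interferon-stimulated genes in wild-type cells (median log2 3.49) and 36 of 38 in Trpv4-null cells (3.49). The pro-inflammatory cytokines compared were all at least 2-fold higher, 4 of 4 and 3 of 3. Among chemokines 9 of 12 and 10 of 12 were higher, with median log2 4.77 and 6.05, or 4.59 and 5.72 with genes at 0 UMIs taken at their bound. MHC class I and immunoproteasome genes counted 13 of 15 and 12 of 15, glycolysis and hypoxia 11 of 22 and 9 of 22, and inflammasome and IL-1 7 of 15 and 6 of 13. Immediate-early genes were at least 2-fold lower in 11 of 15 and 6 of 16, beside 20.2% and 23.1% of all genes. With TMM factors they were lower in 7 of 15 and 3 of 15, beside 517 of 6038 and 647 of 6077 genes in all.

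Among the genes lower after LPS, Slc40a1, the iron exporter ferroportin, had levels of 312 and 262 CPM in untreated cells that were down to 1.45 and 1.15 CPM with LPS. Ighm, the immunoglobulin heavy chain constant region, had 204 and 255 CPM without LPS, 0.24 CPM in LPS-treated wild-type cells and 0 UMIs in LPS-treated Trpv4-null cells, there at least 516-fold lower. Hpgd, which degrades prostaglandins, had 126 and 70.8 CPM without LPS, 0 UMIs in LPS-treated wild-type cells (at least 348-fold lower) and 0.33 CPM in LPS-treated Trpv4-null cells. F13a1 and Ccr2 were also lower after LPS, Ccr2 by log2 ratios of -2.03 and -2.38. The other cells had -2.26 and -2.19, and the Ccr2 ratio of Tmem176+ to other cells stayed between 6.25 and 8.39.

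The LPS ratios of Tmem176a and Tmem176b were closer to 0 in the Tmem176+ cells than in the pooled other cells. Cells carry the name through these genes, in a clustering over treated and untreated cells, so the values are a description. Tmem176a had log2 LPS ratios of -0.34 and -0.17 in Tmem176+ cells and -1.01 and -0.62 in the others, differences of 0.67 and 0.45. The sign in Tmem176+ cells depended on scaling, at 0.14 and 0.32 with TMM factors and 0.11 and 0.31 with median-of-ratios factors. The differences to the other cells did not, at 0.65 and 0.40 with TMM factors. Tmem176b had -0.52 and -0.38 against -1.27 and -0.91, with the Trpv4-null value in Tmem176+ cells at 0.11 with TMM factors and 0.09 with median-of-ratios factors. The other clusters were not alike: among thinned wild-type cells, the share with a Tmem176a UMI was 15.2% untreated and 19.2% with LPS in the Proliferating cluster, 16.5% and 7.96% in the Macrophage cluster, and 78.2% and 67.6% in Tmem176+ cells. With 1 library per group these differences were not tested.

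The LPS response was otherwise close to that of the other cells. The log2 LPS ratio of 93.0% of genes in wild-type and 89.4% in Trpv4-null cells lay within 0.5 of the ratio in the other cells. Of genes compared in both, 370 were at least 2-fold higher in wild-type Tmem176+ and other cells, 80.6% of the 459 in Tmem176+ cells and 89.8% of the 412 in the others. For Trpv4-null cells it was 384, or 77.1% of 498 and 89.7% of 428. Only 37 of 6329 genes were at least 1 log2 apart in the same direction in both genotypes.

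**Figure D4:**
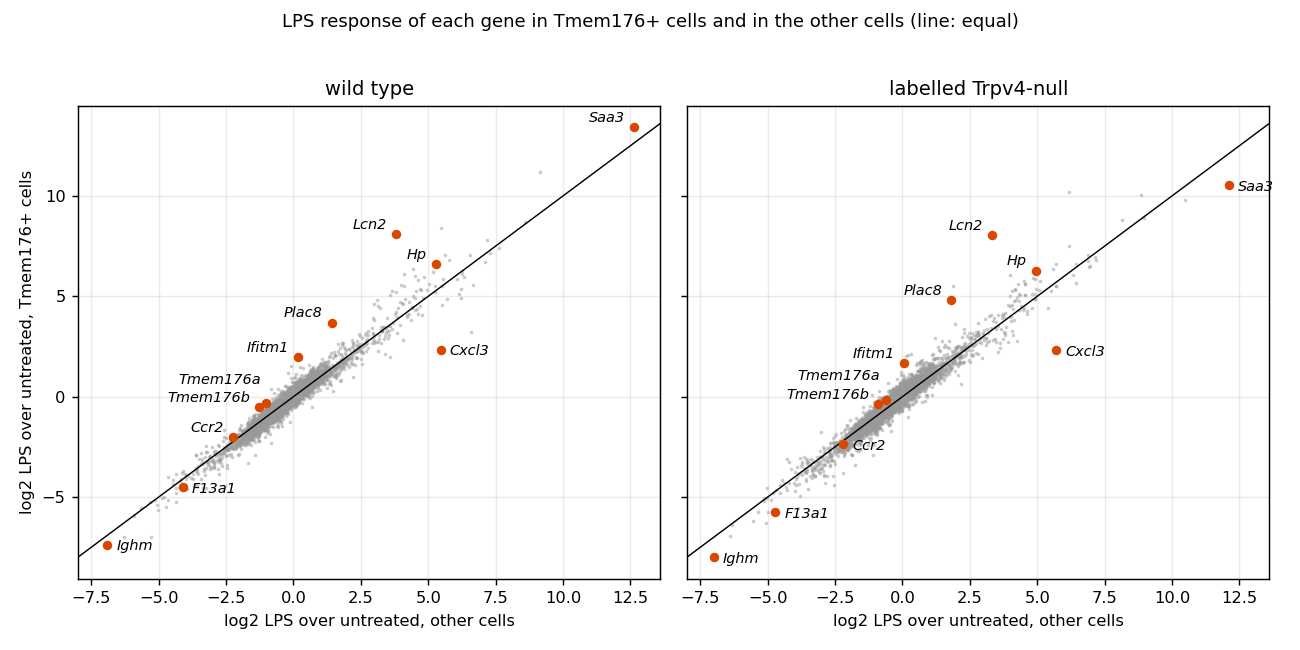
Log2 LPS ratio of each gene in other cells (horizontal) and Tmem176+ cells (vertical), for wild type and Trpv4-null. The points are genes that passed the filter in both kinds of cells, and most lie near the diagonal. Over the 6471 and 6521 genes that passed in either kind, 93.0% and 89.4% were within 0.5 log2 of it.

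Genes that were more strongly higher in Tmem176+ cells after LPS included Plac8 and Ifitm1. Plac8, a monocyte marker, stood at 2.49, 2.08, 44.1 and 84.8 CPM in Tmem176+ cells (untreated wild type, untreated Trpv4-null, LPS wild type, LPS Trpv4-null) against 2.32, 1.18, 7.86 and 6.62 CPM. It was counted in 2, 3, 63 and 47 Tmem176+ cells, and the top cell held 11.7% and 21% of its UMIs after LPS. In untreated cells the ratio to the others was 1.07 (0.384 to 2.42) and 1.77 (0.465 to 4.80). LPS-treated Tmem176+ cells were 5.61-fold (4.97 to 6.33) and 12.8-fold (11.4 to 14.4) above the others. With so few cells behind the gene, the spread between cells, which these intervals leave out, matters. Ifitm1, an interferon-induced membrane protein, stood at 13.3, 29.7, 54.4 and 97.2 CPM against 8.20, 13.8, 9.35 and 14.4 CPM. Hp, which encodes haptoglobin, stood at 0.83, 1.04, 177 and 158 CPM against 1.26, 1.53, 86.3 and 77.4 CPM, and was counted in 2, 2, 200 and 158 Tmem176+ cells. Cxcl10 started from 2.08 and 0.52 CPM in untreated Tmem176+ cells against 28.7 and 29.4 CPM in others and reached 1037 and 1798 CPM against 1327 and 2195 CPM.

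Chosen after their values were seen, the dicarboxylate carrier Slc13a3 stood at 7.89, 2.60, 231 and 238 CPM against 1.5, 1.35, 37.3 and 36.5 CPM. Ly6c2, a surface marker of inflammatory monocytes, stood at 0.42, 0, 19.4 and 34.9 CPM against 2.37, 1.38, 16.9 and 7.99 CPM. Clec4b1, a C-type lectin, stood at 43.2, 39.5, 21.8 and 14.7 CPM against 17.6, 9.29, 4.93 and 4.15 CPM. The higher LPS level of Slc13a3 was seen in both genotypes. After LPS the ratio of Ly6c2 to the other cells was 4.37 (3.74 to 5.09) in Trpv4-null and 1.15 (0.972 to 1.35) in wild-type cells, a difference that was not tested. Few cells held Ly6c2: among thinned LPS-treated Trpv4-null Tmem176+ cells, 4 of 17 with a Ccr2 UMI and 7 of 268 without. In wild-type cells they were 5 of 32 and 7 of 341.

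**Figure D5:**
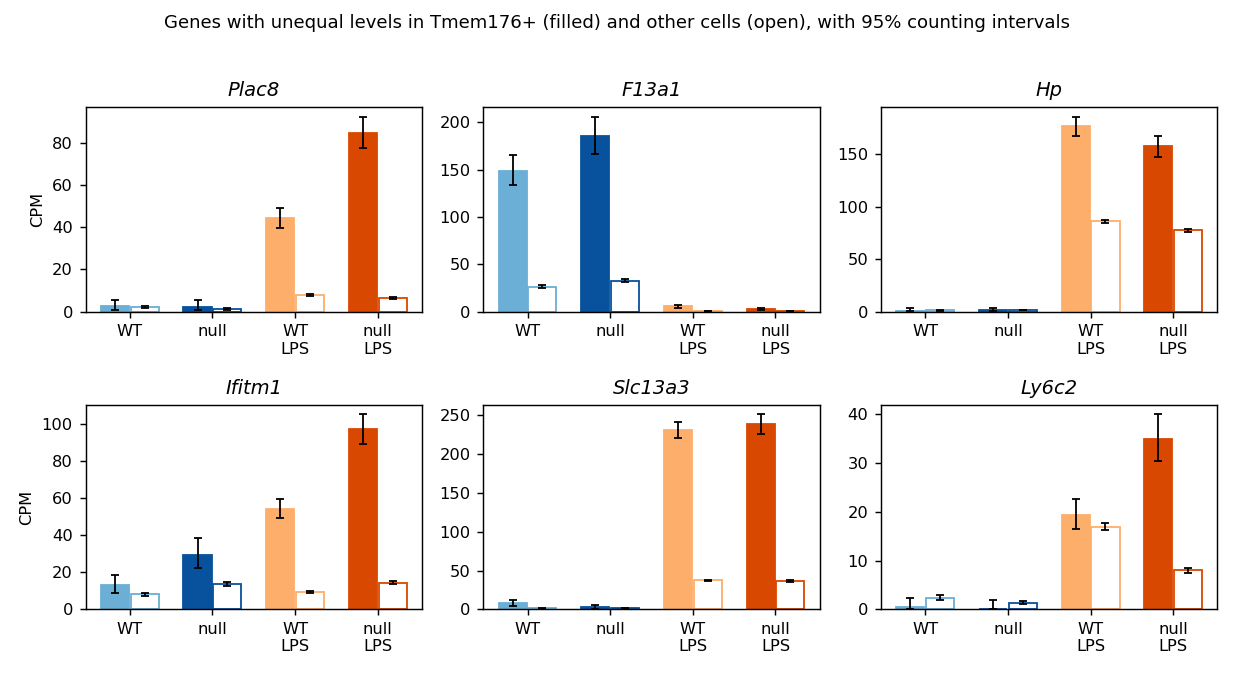
CPM of Plac8, F13a1, Hp, Ifitm1, Slc13a3 and Ly6c2 in Tmem176+ and other cells of each library, with exact 95% Poisson intervals. Plac8 reaches 44.1 and 84.8 CPM in LPS-treated Tmem176+ cells and stays at 2.49 or below in untreated ones.

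Other genes were less high, or lower, in Tmem176+ cells after LPS. Cxcl3, a neutrophil chemokine, had 0 UMIs in untreated Tmem176+ cells and 4.10 and 3.95 CPM after LPS, against 57.9 and 59.4 CPM in the other cells. Clec4n, the lectin Dectin-2, stood at 182, 151, 35.8 and 19.3 CPM against 136, 93.5, 76.5 and 43.1 CPM, above the other cells before LPS and below them after it. Cd86, a co-stimulatory ligand for T cells, likewise stood at 24.1, 30.2, 7.48 and 8.24 CPM against 14.0, 12.9, 10.9 and 14.8 CPM.

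Few genes differed at least 2-fold by the Trpv4-null label. Between untreated libraries 23 of 5997 genes were at least 2-fold higher in Trpv4-null Tmem176+ cells (0.384%) and 19 lower (0.317%). After LPS 8 of 5042 were higher (0.159%) and 1 was lower (0.0198%). The lower gene was U90926, named after its values were seen, with 28.2 CPM in LPS-treated wild-type and 6.10 CPM in LPS-treated Trpv4-null Tmem176+ cells. Tmem176a and Tmem176b differed little by label, with log2 ratios of -0.18 and -0.20 untreated and -0.01 and -0.06 after LPS. The Tmem176a value after LPS was 0.01 with TMM and 0.03 with median-of-ratios factors.

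Of the genes with the highest label ratios, Jaml, Ly6a and Mmp8 were also higher in the other cells. Saa3 had a log2 label ratio of 2.76 without LPS, and most of its Trpv4-null UMIs there came from 1 cell, as given above. Without LPS Jaml, a junctional adhesion molecule, had 1.25 CPM in wild-type against 23.4 CPM in Trpv4-null Tmem176+ cells, where 3 and 36 cells had a UMI, and 1.14 against 11.6 CPM in the others. The interferon-inducible surface antigen Ly6a had 5.40 against 47.3 CPM without LPS and 125 against 307 CPM with it, where the others had 4.89 against 21.1 CPM and 133 against 268 CPM. The collagenase Mmp8 stood at 5.82 and 29.1 CPM against 9.39 and 44.0 CPM in the others. Dusp1, a phosphatase that limits MAP kinase signalling, was lower, at 294 and 96.2 CPM in Tmem176+ cells and 328 and 112 CPM in the others. Mphosph10 stood at 22.4 and 5.72 CPM in Tmem176+ cells but at 23.5 and 19.6 CPM in the others. Cxcl2 was lower untreated, at 43.2 and 12.5 CPM, and higher after LPS, at 86.4 and 193 CPM. After LPS the monocyte chemokines Ccl7 (319 and 716 CPM) and Ccl8 (29.2 and 89.6 CPM) and Gpnmb, a glycoprotein of lysosomes (382 and 821 CPM), were higher under the label. In the other cells Ccl7 stood at 697 and 1253 CPM and Gpnmb at 914 and 1774 CPM. The 1 library on each side leaves the label, the mice and the library preparation of each pair of libraries impossible to tell apart.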

How the data were processed

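Single-cell RNA sequencing (10x Chromium) of 4 libraries was analysed. The deposited table holds UMI counts, not normalized, for 14432 genes in 27366 cells, and every cell's counts summed to its annotated total. The deposited annotation gives, per the file headers, each cell's library, cluster name and mitochondrial fraction. Cell Ranger 3.1.0, Seurat 4, R 4.2 and the build mm10 are named in the submitters' processing notes, without roles. How the authors filtered cells, treated doublets or used strand is not stated in the labels or headers, and no doublet caller was run.

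UMIs were summed per library over Tmem176+ cells and over all other cells and scaled to CPM (per 1000000 UMIs) by the sum's total. A pseudocount of 1 CPM was added to both values of each log2 ratio, for genes with at least 20 CPM and 30 UMIs in the higher sum, and ratios printed as folds carry no pseudocount. A 2-fold ratio is a size, not a test. Intervals are 95%, exact Poisson for CPM, exact conditional for ratios and Clopper-Pearson for shares. The High_Btg1 cluster (67 cells) was left out of rankings. Alternatives were TMM factors (edgeR 4.0.16), median-of-ratios factors, a pseudocount of 5, a filter of 5 CPM and 10 UMIs, thinning to 3000 UMIs, leaving out the 5% of cells with the most UMIs, and the Macrophage cluster alone as comparator. Scripts ran in R 4.3.3 and Python 3.11.15 with pandas 2.3.3, scipy 1.17.1, numpy 2.4.6 and matplotlib 3.10.9, and were tested on simulated data.

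Named genes were both markers and Trpv4, the 15 highest and 12 lowest against other cells, the 12 each way for LPS, 8 each way for the label, 10 each way for the LPS difference to other cells, and up to 4 per gene list, ranked by the library or genotype closest to 0. A gene that the rule names is not reported here. Cluster members, gene lists and rules were chosen with earlier results of these data known. Symbols were matched to GENCODE M21 (GRCm38) for 14275 of 14432 genes (98.9%).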

Additional observations from a re-analysis of the deposited data

Results flagged for a closer look

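For 6 genes LPS ratios had opposite signs in Tmem176+ and in other cells in both genotypes; the difference between the 2 kinds of cells was not tested. These signs are on UMI totals. With TMM or median-of-ratios factors 5 of the 6 genes still had opposite signs in both genotypes, while Tmpo in wild-type other cells was at 0.40 with TMM factors. Differences of log2 LPS ratios, Tmem176+ minus other cells, are given for wild-type and then Trpv4-null cells. S100a8, an alarmin of neutrophils and monocytes, differed by 4.24 and 4.36, with 2.98 and 1.84 in Tmem176+ cells against -1.26 and -2.52 in the others. It was counted in 1, 1, 32 and 15 Tmem176+ cells (untreated wild type, untreated Trpv4-null, LPS wild type, LPS Trpv4-null), and 1 cell held 53.4% of its UMIs in the other untreated wild-type cells. S100a9, the partner of S100a8, differed by 2.35 and 4.92, was counted in at most 1 Tmem176+ cell per library, and had 60.3% of its UMIs in 1 of the other untreated wild-type cells and 99.2% in 1 of the other LPS-treated Trpv4-null cells.

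Among genes of the cell cycle and growth, Top2a differed by 1.17 and 2.12, with 0.65 and 0.94 in Tmem176+ cells against -0.52 and -1.18 in the others. It was counted in 6, 3, 35 and 28 Tmem176+ cells, at only 2.49, 2.60, 4.46 and 5.93 CPM. The other cells include the Proliferating cluster, where Top2a stood at 516, 673, 325 and 327 CPM. The part of that cluster in the Top2a difference was not tested. The spindle factor Tpx2 differed by 1.5 and 1.07. The nuclear envelope protein Tmpo differed by 1.63 and 1.24, with 1.54 and 0.70 in Tmem176+ cells against -0.09 and -0.54. The transferrin receptor Tfrc differed by 1.22 and 1.21, with 0.40 and 0.08 in Tmem176+ cells against -0.82 and -1.12.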

How the results depend on the processing

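Of 1008 single values recomputed under 7 alternatives, 790 stayed within their counting interval, 206 moved and 12 changed sign, and the share of each library annotated as Tmem176+ stayed within its interval. The cause of these changes was not tested. Against the other cells, the 4 genes at least 2-fold higher in all libraries were 7 with the filter of 5 CPM and 10 UMIs, 2 after thinning and 7 against the Macrophage cluster alone. The 13 lower were 45, 8 and 6. For LPS in wild-type cells the 474 higher were 931 with TMM and 909 with median-of-ratios factors. The 1232 lower were 517, 559 and, with the lower filter, 1961. In Trpv4-null cells the 522 higher were 1072 and 1056, and the 1412 lower were 647, 656, 2330 with the lower filter and 859 after thinning. By label in untreated cells, the 23 higher were 15 with a pseudocount of 5 and 117 with the lower filter, and the 19 lower were 11, 122 and, after thinning, 52. After LPS the 8 higher were 5, 19 and, after thinning, 19. The 1 lower was 2 with either scaling, 9 with the lower filter, 23 after thinning and 4 without the deepest 5% of cells.

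Sign changes were as follows. Tmem176a after LPS was 0.1389 (wild type) and 0.3241 (Trpv4-null) with TMM factors, and 0.114 and 0.3077 with median-of-ratios factors; its label ratio after LPS was 0.0108 and 0.026. Tmem176b after LPS in Trpv4-null cells was 0.1104 and 0.0941. The Ccr2 LPS difference in wild-type cells was -0.2361 with a pseudocount of 5. The Pycard label ratio after LPS was -0.0339 after thinning and -0.0214 without the deepest cells. Stmn1 was 0.1736 against the Macrophage cluster. No paired analysis was possible because each group is 1 library, and no replicate could be left out. Depth limits low genes: 1 UMI is 0.52 CPM in untreated Trpv4-null and 0.12 CPM in LPS-treated wild-type Tmem176+ cells.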
